A study of Mus musculus with 6 samples.

Results

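Cell cycle and proliferation genes were examined in the epididymal fat (eWAT) of obese mice whose fat pads had received a vector for the LIM domain protein LMO3. The list held 40 genes, 15 that act in DNA replication and 25 that act in mitosis, out of 19938 genes with a probe set on the arrays. For each gene the probe set annotated with that symbol alone was taken, and where there were several, the brightest by its mean over the 6 arrays. This gave values for 39 of the 40 genes. Ccnb1, which encodes cyclin B1, had no probe set annotated with its symbol alone and was not analysed here.

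The rAAV-Lmo3 group held 3 arrays and the rAAV-YFP group, the control, held 3 arrays. All mice were male C57BL6/J. At 6 weeks of age both groups were put on a high-fat diet, which lasted 12 weeks. Each array represents a pool of 2 mice. The vector, a recombinant adeno-associated virus of the hybrid serotype Rec2, was injected into the fat pads after a first period on the diet and carried Lmo3 or YFP behind the CBA promoter (a CMV enhancer with the chicken beta-actin promoter), which is not specific to adipocytes. One label field calls the control vector rAAV-LacZ, whereas the sample titles call it rAAV-YFP, and the name in the titles is used. The probe set for Lmo3 read 24, 26 and 24 in intensity on the rAAV-Lmo3 arrays and 25, 24 and 24 on the rAAV-YFP arrays. It lay below the brightness limit for testing in both groups and so gives no check of the group labels. Median intensities of the arrays lay between 123 and 127.5. The arrays rAAV-Lmo3 1 and rAAV-YFP 2 correlated least with the other arrays (mean r across all probe sets 0.986 and 0.988), against 0.990 to 0.991 for the remaining arrays. The fat markers Adipoq, Plin1, Fabp4, Lep and the other 4 adipocyte markers were all among the genes bright enough to test, and none of the 8 epididymis markers was. Of 8 male germ cell markers, 4 (Prm1, Prm2, Tnp2 and Sycp3) were bright enough to test, with a score, defined below, between -0.55 and 0.40 over the arrays.

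Cells that divide copy their DNA in S phase and separate the copies in mitosis, and the genes for both steps are switched on in each round of division and are low in resting cells. Mature adipocytes do not divide, so in fat tissue such transcripts are known mainly from other cells, such as adipocyte progenitors, endothelial cells and immune cells. In obesity, macrophages gather around dying adipocytes and are known to divide locally in the visceral fat of mice. In whole tissue, fewer dividing cells and less RNA per dividing cell cannot be told apart.

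The promoters of these genes carry short elements known to time their transcription. E2F sites are typical of replication genes. The cell cycle genes homology region (CHR), bound by complexes that contain the MuvB core, together with CCAAT boxes, bound by NF-Y, is typical of mitosis genes. RefSeq promoter windows (build GRCm38.p6, 250 bases before to 50 after the start, 300 in all) were on hand for 33 of the 40 genes. Mcm4, Ccne2, Ccna2, Aurkb, Kif20a, Tpx2 and Foxm1 were not matched. Both strands were searched for TTTGAA or TTCGAA (CHR), CCAAT, and TTTGGCGC or TTTCGCGC (E2F). The CHR letters were found in 15 of 20 mitosis genes (75.0%) and 3 of 13 replication genes (23.1%), against 21.7% of all 27025 genes with a window. CCAAT was found in 17 of 20 mitosis genes (85.0%) and 9 of 13 replication genes (69.2%), against 41.1% of all genes. Both elements stood in the same window in 15 of 20 mitosis genes and 3 of 13 replication genes, against 8.61% of all genes. The E2F letters were found in 1 of 20 mitosis genes (5.0%), which was Cdk1, and in 4 of 13 replication genes (30.8%), against 0.929% of all genes. None of the motifs was found in the windows of Cdc6, Ccne1, Tyms, Tk1, Birc5, Nusap1 and Melk. A match describes letters only and does not show that a factor binds there.

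Below are the 200 bases before the start for 3 mitosis genes rich in CHR and CCAAT letters and for 2 Mcm genes with E2F letters. Those of Tyms, whose window held none of the motifs, are given too. Tyms departed from the array pattern described further on. Of the other genes without a motif, Cdc6 departed from it too, and Ccne1, Tk1, Birc5, Nusap1 and Melk followed it. The remaining genes that departed were Pcna and Aurka, whose windows held motifs, and Ccne2, which had no window. A link between motifs and the array pattern was not tested. Capitals mark the motif letters on either strand, so that ATTGG is CCAAT and TTCAAA is TTTGAA read from the other strand. In Mcm5 and Mcm6 a pair of E2F matches on opposite strands overlap and form a single run of capitals. The stretches are chr7:135716380-135716579 (Mki67), chr11:99024190-99024389 (Top2a), chr10:69352913-69353112 (Cdk1), chr1:128359706-128359905 (Mcm6) and chr5:30073626-30073825 (Tyms), all on the minus strand, and chr8:75109309-75109508 (Mcm5) on the plus strand.
Mki67: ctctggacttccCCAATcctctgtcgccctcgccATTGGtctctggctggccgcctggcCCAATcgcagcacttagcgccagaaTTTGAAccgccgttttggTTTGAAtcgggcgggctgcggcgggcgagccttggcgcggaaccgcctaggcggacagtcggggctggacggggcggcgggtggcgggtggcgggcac
Top2a: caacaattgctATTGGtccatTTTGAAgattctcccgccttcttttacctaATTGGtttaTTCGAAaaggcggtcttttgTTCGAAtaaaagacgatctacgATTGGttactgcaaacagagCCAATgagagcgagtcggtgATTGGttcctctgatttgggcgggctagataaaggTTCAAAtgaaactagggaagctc
Cdk1: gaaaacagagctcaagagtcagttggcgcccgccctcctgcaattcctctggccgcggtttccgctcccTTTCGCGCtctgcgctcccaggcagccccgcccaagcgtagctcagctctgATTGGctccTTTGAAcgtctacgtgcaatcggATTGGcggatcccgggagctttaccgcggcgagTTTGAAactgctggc
Mcm5: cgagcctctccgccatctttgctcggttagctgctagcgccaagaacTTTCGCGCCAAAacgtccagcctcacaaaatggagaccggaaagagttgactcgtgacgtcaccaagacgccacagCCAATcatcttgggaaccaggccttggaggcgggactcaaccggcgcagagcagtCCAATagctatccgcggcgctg
Mcm6: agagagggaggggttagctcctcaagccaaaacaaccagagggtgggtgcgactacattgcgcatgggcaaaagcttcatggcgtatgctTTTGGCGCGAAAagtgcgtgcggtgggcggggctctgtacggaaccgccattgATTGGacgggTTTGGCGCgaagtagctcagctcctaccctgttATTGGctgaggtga
Tyms: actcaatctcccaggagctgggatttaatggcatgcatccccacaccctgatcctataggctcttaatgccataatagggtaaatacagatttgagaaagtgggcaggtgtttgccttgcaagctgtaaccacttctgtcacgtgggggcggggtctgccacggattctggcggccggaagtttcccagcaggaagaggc

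To ask whether Lmo3 delivery went along with a change in the cell cycle genes, the 11963 genes bright enough to test were compared between rAAV-Lmo3 and rAAV-YFP eWAT with limma, a linear model that shares the estimate of the spread over genes. None of the 30 cell cycle genes bright enough to test (13 replication and 17 mitosis genes) passed a Benjamini-Hochberg adjusted p of 0.05, and none passed an unadjusted p of 0.05 in either direction. Over all genes tested, 0 (0%) passed the adjusted threshold, the smallest adjusted p being 0.669, and 2.27% were higher and 2.4% lower in rAAV-Lmo3 eWAT at the unadjusted threshold. The other 9 genes were too dim to test, with a mean log2 intensity under 6.83, and read from the same model without the brightness filter none of them passed the unadjusted threshold. Those were the replication genes Cdc6 and Ccne2 and the mitosis genes Bub1, Cenpe, Cenpf, Nusap1, Prc1, Ttk and Melk. Prc1 lay just under the limit at a mean log2 intensity of 6.83, and Foxm1 just above it at 6.88. The arrays of the groups overlapped for 39 of 39 genes. Over all genes tested, the arrays did not overlap in 4.53% (higher in rAAV-Lmo3) and 5.95% (lower). With 3 arrays against 3, an exact permutation test of a single gene cannot give a p under 0.1. The replicates were separate pools, so the p-values measure the spread between pools.

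The Mcm genes encode the 6 subunits of the ring that unwinds DNA at the fork. Mcm2 read 237, 309 and 271 in intensity on the rAAV-Lmo3 arrays and 295, 232 and 298 on the rAAV-YFP arrays. The difference of the group means was -0.01 ± 0.14 on the log2 scale (rAAV-Lmo3 minus rAAV-YFP, ± SE of the moderated difference, n = 3 each). Both groups spanned much the same values, with rAAV-Lmo3 1 and rAAV-YFP 2 at the low end. Mcm5 read 233, 305 and 301 on the rAAV-Lmo3 arrays and 305, 201 and 282 on the rAAV-YFP arrays, a difference of 0.10 ± 0.19 with a 95% interval from -0.34 to 0.54. Mcm6 read 206, 293 and 305 on the rAAV-Lmo3 arrays and 309, 169 and 243 on the rAAV-YFP arrays, a difference of 0.18 ± 0.25. The same pair of arrays was low and the remaining 4 were high. Mcm7 read 199, 234 and 248 on the rAAV-Lmo3 arrays and 222, 172 and 221 on the rAAV-YFP arrays, a difference of 0.15 ± 0.14 (limma, adjusted p = 0.971). Mcm3 and Mcm4 differed by 0.08 ± 0.27 and 0.11 ± 0.16. In all 6 Mcm genes rAAV-Lmo3 1 was the lowest of its group and rAAV-YFP 2 the lowest of its group.

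Among the genes that load and start the Mcm ring, Cdc45, a part of the active helicase, varied least of all 39 genes between pools. It read 222, 248 and 239 on the rAAV-Lmo3 arrays and 235, 203 and 240 on the rAAV-YFP arrays, a difference of 0.07 ± 0.10. Its within-group SD was 0.11 on the log2 scale. Cdc6, which helps load the Mcm ring onto origins, read 78, 67 and 77 on the rAAV-Lmo3 arrays and 73, 60 and 68 on the rAAV-YFP arrays, a difference of 0.14 ± 0.10. It was the only cell cycle gene with rAAV-Lmo3 1 as the highest array of its group. The cyclins E drive entry into S phase. Ccne1 read 184, 223 and 216 on the rAAV-Lmo3 arrays and 196, 167 and 209 on the rAAV-YFP arrays, a difference of 0.12 ± 0.12. The dim Ccne2 read 60, 62 and 56 on the rAAV-Lmo3 arrays and 64, 51 and 60 on the rAAV-YFP arrays, a difference of 0.03 ± 0.10.

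Other replication genes supply the nucleotides for the new strands. Rrm2, the S phase subunit of ribonucleotide reductase, read 105, 195 and 226 on the rAAV-Lmo3 arrays and 183, 105 and 182 on the rAAV-YFP arrays. The difference was 0.13 ± 0.34, with a 95% interval from -0.67 to 0.94, while the arrays spanned 2.15-fold within the rAAV-Lmo3 group and 1.74-fold within the rAAV-YFP group. The low arrays rAAV-Lmo3 1 and rAAV-YFP 2 had the same intensity, and each lay far from the other arrays of its own group. Its partner Rrm1 differed by 0.18 ± 0.25 with the same arrays at the low end. Tk1, the thymidine kinase of S phase, read 211, 301 and 326 on the rAAV-Lmo3 arrays and 307, 233 and 268 on the rAAV-YFP arrays, a difference of 0.04 ± 0.19. Tyms, which makes thymidylate, read 124, 192 and 213 on the rAAV-Lmo3 arrays and 182, 191 and 193 on the rAAV-YFP arrays, a difference of -0.13 ± 0.20, or 0.11 without both rAAV-Lmo3 1 and rAAV-YFP 2. Here the rAAV-YFP arrays lay close together and rAAV-YFP 2 was not low, so that Tyms was the only gene without a low rAAV-YFP 2 apart from the tie in Aurka given below. Pcna, the sliding clamp of the DNA polymerases, read 1039, 1166 and 1396 on the rAAV-Lmo3 arrays and 1385, 788 and 1021 on the rAAV-YFP arrays. The difference was 0.20 ± 0.22 (95% interval -0.31 to 0.72, limma, adjusted p = 0.971), the highest point estimate of the replication genes. A second Pcna probe set gave 1046, 1163 and 1397 on the rAAV-Lmo3 arrays and 1389, 785 and 1015 on the rAAV-YFP arrays.

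**Figure D1:**
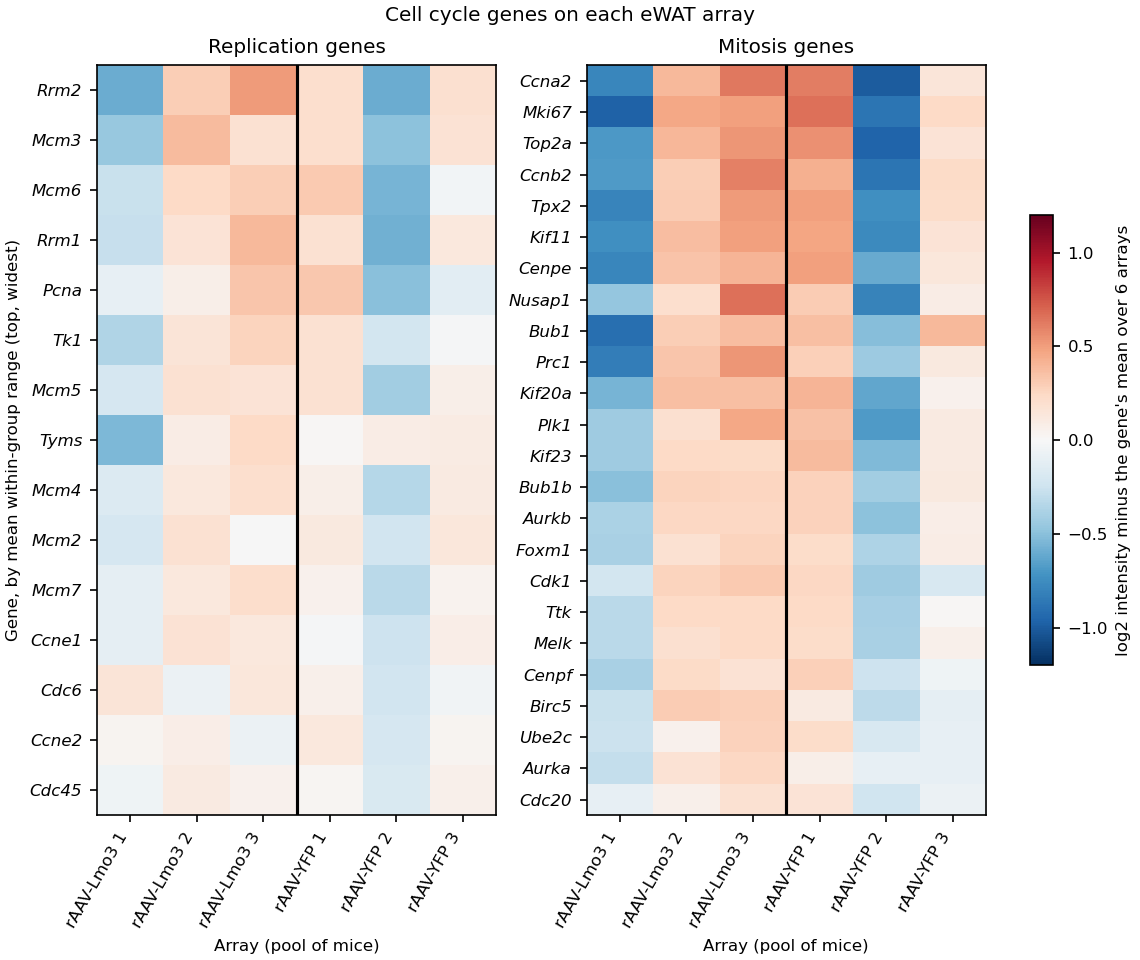
Colours give the log2 intensity minus the gene's mean over the 6 arrays, with genes down the page by their range within groups and arrays across, rAAV-Lmo3 left of the line and rAAV-YFP right of it. The columns rAAV-Lmo3 1 and rAAV-YFP 2 are blue for nearly all genes, and Cdc6, Ccne2 and Tyms depart from this.

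The mitosis genes showed the same low arrays with a wider spread. Mki67, which encodes the proliferation marker Ki-67, read 251, 676 and 690 on the rAAV-Lmo3 arrays and 774, 267 and 579 on the rAAV-YFP arrays. The arrays spanned 2.75-fold within the rAAV-Lmo3 group and 2.90-fold within the rAAV-YFP group, whereas the group means differed by -0.01 ± 0.52 on the log2 scale (95% interval -1.25 to 1.22, limma, adjusted p = 1.000). Each group held 1 low array, rAAV-Lmo3 1 and rAAV-YFP 2, and the remaining arrays lay at 579 or more. Top2a, the topoisomerase that untangles the replicated chromosomes, read 139, 296 and 324 on the rAAV-Lmo3 arrays and 328, 115 and 251 on the rAAV-YFP arrays, a difference of 0.16 ± 0.47. Its low arrays were again rAAV-Lmo3 1 and rAAV-YFP 2. A dim second Top2a probe set read 36, 25 and 31 on the rAAV-Lmo3 arrays and 22, 24 and 26 on the rAAV-YFP arrays and did not show them.

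Entry into mitosis rests on the kinase CDK1 with cyclins A and B. Cdk1 read 105, 147 and 152 on the rAAV-Lmo3 arrays and 145, 91 and 107 on the rAAV-YFP arrays. The difference was 0.24 ± 0.21 (95% interval -0.26 to 0.75, limma, adjusted p = 0.971), the smallest p among the mitosis genes tested. The array rAAV-YFP 3 lay nearer here to the low array of its group than to the high one. Ccna2, cyclin A2, read 141, 318 and 377 on the rAAV-Lmo3 arrays and 371, 121 and 268 on the rAAV-YFP arrays, a difference of 0.16 ± 0.51. Within the rAAV-YFP group it spanned 3.07-fold, the widest of all 39 genes. Ccnb2, cyclin B2, differed by 0.15 ± 0.44 and spanned 2.42-fold within the rAAV-Lmo3 group and 2.47-fold within the rAAV-YFP group. Foxm1, a transcription factor for genes of G2 and mitosis, read 90, 134 and 142 on the rAAV-Lmo3 arrays and 137, 91 and 125 on the rAAV-YFP arrays, a difference of 0.05 ± 0.22.

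Among the mitotic kinases and the chromosomal passenger complex, Birc5 (survivin) read 101, 150 and 148 on the rAAV-Lmo3 arrays and 131, 98 and 113 on the rAAV-YFP arrays. The difference was 0.21 ± 0.18 (limma, adjusted p = 0.971). Without both rAAV-Lmo3 1 and rAAV-YFP 2 it was 0.29 ± 0.10, which passed the unadjusted threshold of limma but not the adjusted one (adjusted p = 1). In that setting 2.36% of all genes tested were higher at the unadjusted threshold. Birc5 also passed that threshold with array weights (0.31, against 2.92% of all genes tested), and Birc5 and Aurka did without rAAV-Lmo3 replicate 1 (0.40 and 0.25, against 2.49% of all genes tested). Aurka, the Aurora kinase of the spindle poles, read 117, 161 and 169 on the rAAV-Lmo3 arrays and 150, 133 and 133 on the rAAV-YFP arrays, a difference of 0.09 ± 0.15, with rAAV-YFP 2 tied with rAAV-YFP 3. Aurkb, the Aurora kinase of the passenger complex, differed by 0.08 ± 0.25 and Plk1, a kinase of mitotic entry and exit, by 0.15 ± 0.32, with the usual pair of arrays low. Ttk, a kinase of the spindle checkpoint, read 38, 56 and 56 on the rAAV-Lmo3 arrays and 56, 36 and 48 on the rAAV-YFP arrays, a difference of 0.10 ± 0.21. Dim as it was, it had the same arrays at the low end. Bub1 and Bub1b, also of the spindle checkpoint, differed by -0.16 ± 0.40 and 0.02 ± 0.26. Melk, a kinase of dividing cells, differed by 0.08 ± 0.21.

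For the end of mitosis, Cdc20, which activates the anaphase-promoting complex, read 116, 129 and 141 on the rAAV-Lmo3 arrays and 139, 105 and 118 on the rAAV-YFP arrays. The difference was 0.10 ± 0.13, and the spans of 1.22-fold within the rAAV-Lmo3 group and 1.32-fold within the rAAV-YFP group were the narrowest of the mitosis genes apart from the rAAV-YFP span of Aurka. Ube2c, the ubiquitin-conjugating enzyme that works with that complex, differed by 0.05 ± 0.17. Among the genes of the spindle and of cell division, Nusap1 read 67, 106 and 146 on the rAAV-Lmo3 arrays and 114, 53 and 98 on the rAAV-YFP arrays. Its difference of 0.27 ± 0.37 was the highest of all 39 genes and lay well within its interval from -0.62 to 1.16. Kif11, Kif20a and Kif23 (motors of the spindle and midzone), Prc1 (a bundler of midzone microtubules), Tpx2 (an activator of Aurora A), and Cenpe and Cenpf (kinetochore proteins) differed by between -0.02 and 0.11. All 7 had rAAV-Lmo3 1 and rAAV-YFP 2 as the lowest arrays of their groups.

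**Figure D2:**
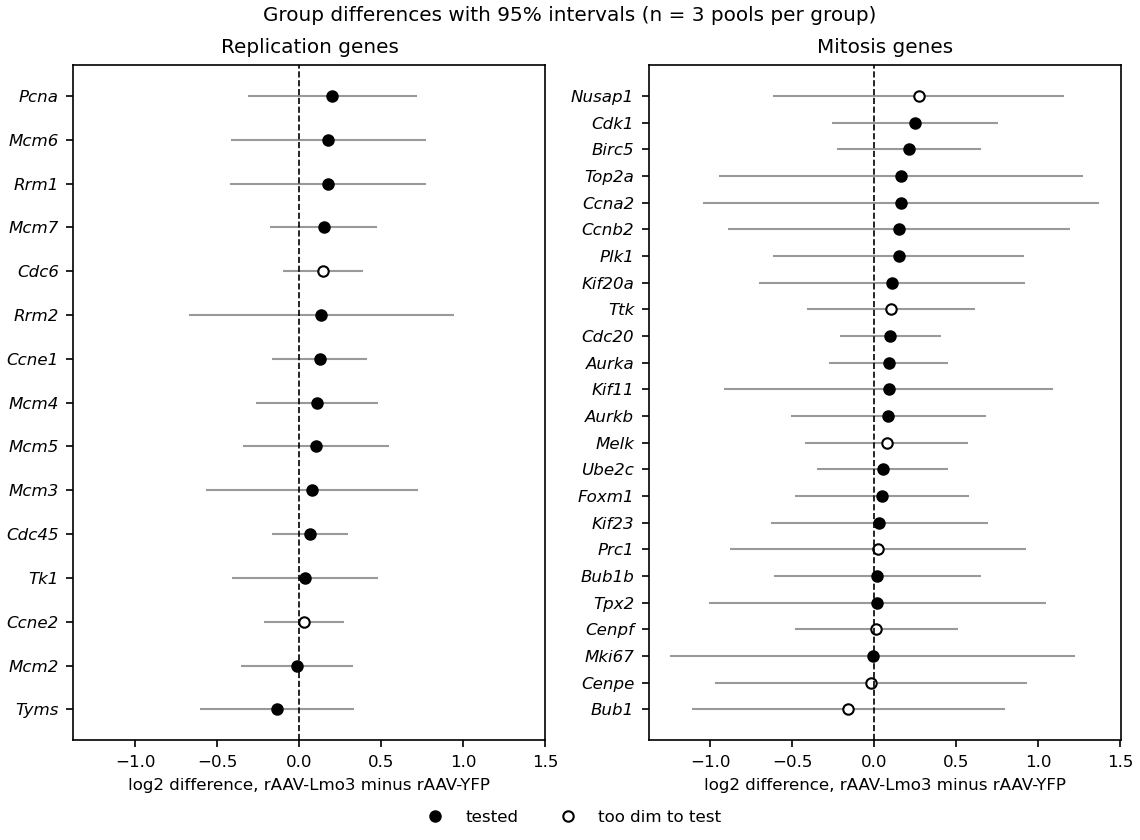
Points give the log2 difference of the group means, rAAV-Lmo3 minus rAAV-YFP, with 95% intervals from limma (n = 3 pools per group), for replication and mitosis genes sorted by size. All 39 intervals cross 0, and the widest, of Mki67 and Ccna2, reach beyond 1 in both directions.

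Read as groups, 13 of 15 replication genes and 21 of 24 mitosis genes had a difference above 0, dim genes included. Among those bright enough to test it was 11 of 13 and 16 of 17, against 50.3% of all genes tested. Over all measured replication and mitosis genes the median differences were 0.11 and 0.09 on the log2 scale, and that of all genes tested was 0.00. These counts are not independent observations, since the genes followed the same arrays, and they turned with single arrays. Without rAAV-YFP replicate 2 the medians were -0.06 for the replication genes and -0.17 for the mitosis genes. Without rAAV-Lmo3 replicate 1 they were 0.23 for the replication genes and 0.38 for the mitosis genes. For the mitosis genes the median was also below 0 without rAAV-Lmo3 replicate 2 (-0.01) or rAAV-Lmo3 replicate 3 (-0.08). Without both rAAV-Lmo3 1 and rAAV-YFP 2 they were 0.10 for the replication genes and 0.10 for the mitosis genes. Differences above 0 were then seen in 12 of 13 replication and 16 of 17 mitosis genes bright enough to test, against 5712 of 11963 genes tested.

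The spread between pools exceeded the group differences. The range within each group was larger than the size of the group difference in 38 of 39 genes, the exception being Tyms with its narrow rAAV-YFP range. Among those bright enough to test it was 12 of 13 replication and 17 of 17 mitosis genes, against 74.7% of all genes tested. The median within-group SD was 0.27 on the log2 scale for the replication genes and 0.46 for the mitosis genes. Among those bright enough to test it was 0.275 and 0.43, against 0.14 for all genes tested. The ranges of cell cycle genes that follow include those too dim to test. The median range of the replication genes was 0.39 within the rAAV-Lmo3 group and 0.40 within the rAAV-YFP group, and that of the mitosis genes was 0.83 within the rAAV-Lmo3 group and 0.83 within the rAAV-YFP group. For all genes tested it was 0.24 within each group. The mitosis genes Mki67, Ccna2, Top2a, Ccnb2, Tpx2 and Kif11 spanned more than 2.3-fold in both groups, whereas the replication genes Cdc45, Cdc6, Ccne1, Ccne2 and Mcm7 spanned less than 1.3-fold in both.

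**Figure D3:**
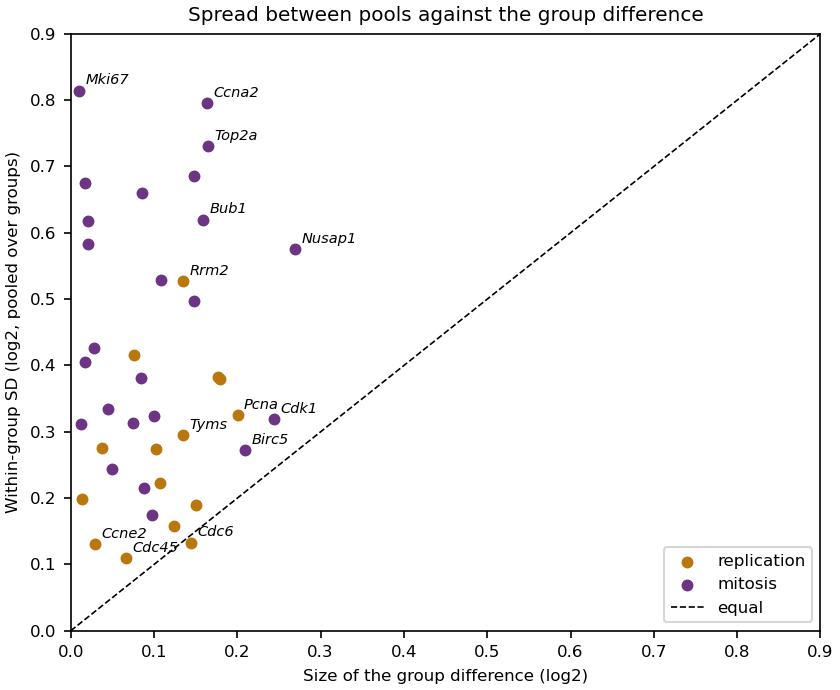
Each point is a gene, with the size of the log2 group difference on the x axis and the within-group SD in log2, pooled over both groups, on the y axis (n = 3 arrays each). Apart from Cdc6 the points lie above the dashed line of equality, and Mki67 combines an SD of 0.81 with a difference of size 0.01.

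The shared array pattern was counted. rAAV-Lmo3 1 was the lowest array of its group in 37 of 39 genes and rAAV-YFP 2 in 37 of 39. Both held together in 12 of 15 replication genes and 23 of 24 mitosis genes. Among those bright enough to test it was 12 of 13 and 16 of 17, against 25.8% of all genes tested. In 11 of 15 replication genes and 23 of 24 mitosis genes both of these arrays lay below all 4 other arrays. Among those bright enough to test it was 11 of 13 and 16 of 17, against 20.4% of all genes tested. Over all 39 genes the exceptions were Cdc6, Ccne2, Tyms, Pcna and Aurka. No cell cycle gene had both arrays above all the others, against 14.6% of all genes tested. At the upper end, rAAV-YFP 1 was the highest of its group in 33 of 39 genes and rAAV-Lmo3 3 the highest of its group in 26 of 39. Among those bright enough to test, rAAV-YFP 1 was highest in 8 of 13 replication and 17 of 17 mitosis genes, against 3391 of 11963 genes tested. For rAAV-Lmo3 3 it was 8 of 13 and 13 of 17, against 3756 of 11963.

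As a score per array (the mean over a list of the log2 intensity centred per gene), the mitosis genes lay at -0.52, 0.27 and 0.38 on the rAAV-Lmo3 arrays and at 0.34, -0.54 and 0.08 on the rAAV-YFP arrays. The replication genes lay at -0.22, 0.15 and 0.20 on the rAAV-Lmo3 arrays and at 0.14, -0.33 and 0.06 on the rAAV-YFP arrays. For both, the lowest array was rAAV-YFP 2, followed by rAAV-Lmo3 1 and rAAV-YFP 3, and the highest was rAAV-Lmo3 3.

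Markers of other cell types were read beside these scores. The macrophage score lay at -0.37, 0.23 and 0.40 on the rAAV-Lmo3 arrays and at 0.43, -0.71 and 0.02 on the rAAV-YFP arrays, with the same pair of arrays at the low end. Of 16 macrophage markers, 15 were measured and 14 were bright enough to test, and 12 of the 15 had both arrays below all the others. Adgre1, which encodes the macrophage protein F4/80, read 1032, 1946 and 2520 on the rAAV-Lmo3 arrays and 2268, 718 and 1453 on the rAAV-YFP arrays. Itgax, which encodes CD11c, read 543, 1048 and 1375 on the rAAV-Lmo3 arrays and 1681, 421 and 984 on the rAAV-YFP arrays. These followed the cell cycle genes, whereas Cd163, a marker of resident macrophages, did not, with 274, 211 and 251 on the rAAV-Lmo3 arrays and 261, 305 and 291 on the rAAV-YFP arrays. None of the macrophage markers passed the unadjusted threshold between the groups, and their median difference was 0.12. The adipocyte score ran the other way at both arrays, with 0.14, -0.06 and -0.20 on the rAAV-Lmo3 arrays and -0.11, 0.19 and 0.04 on the rAAV-YFP arrays. The erythroid score, over 3 measured of 6 markers, lay at 0.30, -0.30 and -0.02 on the rAAV-Lmo3 arrays and at -0.10, 0.32 and -0.20 on the rAAV-YFP arrays. In all 3 erythroid markers, and in 4 of the 8 adipocyte markers, both arrays lay above all the others, against 14.6% of all genes tested. With dim genes included that share was 14.25%, and 2 of the 3 erythroid markers were bright enough to test. The endothelial score was lowest at rAAV-Lmo3 1 within its group but highest at rAAV-YFP 2 within its group, with -0.21, 0.04 and -0.03 on the rAAV-Lmo3 arrays and -0.13, 0.26 and 0.07 on the rAAV-YFP arrays. The adipose progenitor score had both arrays lowest but spanned less, with -0.15, -0.06 and 0.11 on the rAAV-Lmo3 arrays and 0.09, -0.15 and 0.16 on the rAAV-YFP arrays. The T, B and NK cell score lay at -0.17, -0.20 and 0.06 on the rAAV-Lmo3 arrays and at 0.01, -0.28 and 0.59 on the rAAV-YFP arrays. The mesothelial score lay at -0.25, -0.44 and 0.14 on the rAAV-Lmo3 arrays and at -0.38, -0.09 and 1.02 on the rAAV-YFP arrays. The male germ cell score lay at 0.30, -0.55 and 0.40 on the rAAV-Lmo3 arrays and at 0.28, -0.38 and -0.05 on the rAAV-YFP arrays, and only rAAV-YFP 2 was low there of the pair. The part of any of these cell types in the cell cycle values was not tested.

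**Figure D4:**
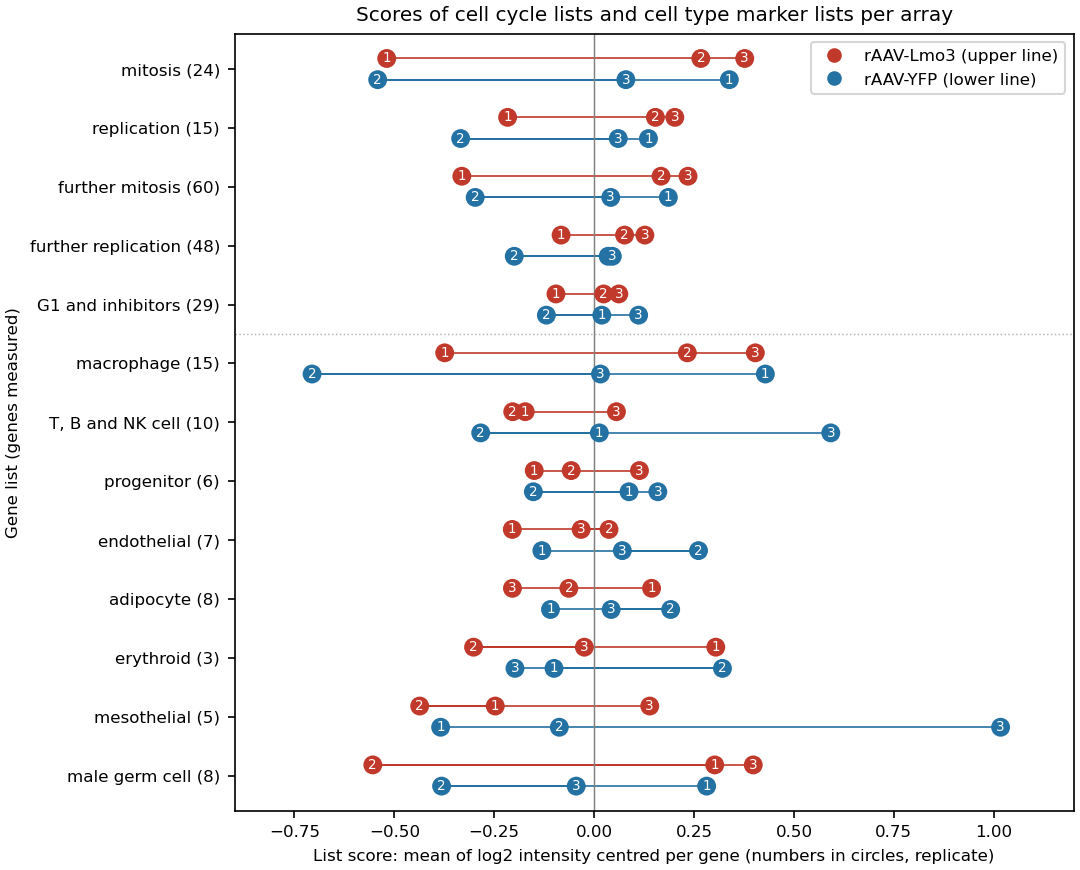
List scores per array, the mean of the log2 intensity centred per gene, for 5 cell cycle lists above the dotted line and 8 cell type marker lists below it, with the number of genes in brackets and the replicate number in each circle. rAAV-Lmo3 1 and rAAV-YFP 2 stand at the low end for all 5 cell cycle lists and for the macrophage and progenitor lists. They stand at the high end for the adipocyte and erythroid lists.

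Further genes of both processes were read from the same fit. Of 49 further replication genes 48 were measured and 37 tested. None passed the unadjusted threshold, and the median was 0.09. Dim genes included, a difference above 0 was seen in 41 of 48. It was seen in 50.3% of all genes tested, and in 9275 of all 19938 genes, dim ones included. Without both rAAV-Lmo3 1 and rAAV-YFP 2 the count above 0 was 31 of 48, against 5712 of 11963 genes tested and 9280 of all 19938. These counts, too, are not independent observations. Orc6, a subunit of the origin recognition complex, read 385, 387 and 402 on the rAAV-Lmo3 arrays and 347, 296 and 380 on the rAAV-YFP arrays, a difference of 0.21 ± 0.11 (limma, adjusted p = 0.970), the only gene of the 37 tested whose groups did not overlap, against 4.53% not overlapping and higher over all genes tested. Rfc2 and Rfc4, subunits of the complex that loads the PCNA clamp, differed by 0.18 ± 0.10 and 0.29 ± 0.18. Both low arrays lay below all the others in 21 of the 48 genes, against 20.4% of all genes tested (13.9% with dim genes included).

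Of 61 further mitosis genes 60 were measured and 32 tested. None passed the unadjusted threshold, and the median was 0.05. Dim genes included, a difference above 0 was seen in 37 of 60. It was seen in 50.3% of all genes tested, and in 9275 of all 19938 genes, dim ones included. Without both rAAV-Lmo3 1 and rAAV-YFP 2 the count above 0 was 43 of 60, against 5712 of 11963 genes tested and 9280 of all 19938. Cenpn (a kinetochore protein) differed by 0.26 ± 0.17, Spc24 (a subunit of the NDC80 complex) by 0.16 ± 0.11 and Gtse1 (a microtubule protein of G2 and mitosis) by -0.22 ± 0.20. Both low arrays lay below all the others in 51 of the 60 genes, against 20.4% of all genes tested (13.9% with dim genes included). The scores of the further mitosis genes were -0.33, 0.17 and 0.23 on the rAAV-Lmo3 arrays and 0.19, -0.30 and 0.04 on the rAAV-YFP arrays.

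Genes of G1, inhibitors of the cell cycle and some other regulators were read in the same way. The list held G1 cyclins, cyclin-dependent kinases and inhibitors, and also E2F factors, Myc and Wee1 among others. Of its 30 genes 29 were measured and all 29 were tested. Of these, 13 had a difference above 0, against 50.3% of all genes tested, and the median was -0.04. Their scores were -0.10, 0.02 and 0.06 on the rAAV-Lmo3 arrays and 0.02, -0.12 and 0.11 on the rAAV-YFP arrays. Both low arrays lay below all the others in 10 of the 29 genes, against 20.4% of all genes tested. Btg2, an antiproliferative gene, read 393, 427 and 418 on the rAAV-Lmo3 arrays and 494, 574 and 557 on the rAAV-YFP arrays. The groups did not overlap, and the difference of -0.39 ± 0.09 passed the unadjusted threshold alone (limma, adjusted p = 0.970). It was the only gene of the 29 to do so, against 2.4% of all genes tested that were lower at that threshold, and rAAV-YFP 2 was the highest array of its group. The groups also did not overlap, with lower values in rAAV-Lmo3 eWAT, for Cdkn1c (p57, an inhibitor of cyclin-dependent kinases), which read 288, 286 and 314 on the rAAV-Lmo3 arrays and 340, 323 and 325 on the rAAV-YFP arrays, a difference of -0.15 ± 0.08. The same held for Rb1, the retinoblastoma protein that restrains E2F, with 1118, 1147 and 1177 on the rAAV-Lmo3 arrays and 1294, 1358 and 1179 on the rAAV-YFP arrays, a difference of -0.15 ± 0.08. It held too for the related Rbl2 (-0.12 ± 0.07) and for E2f4, an E2F factor of resting cells (-0.13 ± 0.07), named after their values were seen. These 5 of 29 genes stand against 5.95% of all genes tested whose groups did not overlap with lower values in rAAV-Lmo3 eWAT. None of them passed after adjustment over all genes tested. The 5 genes are not independent observations, and the nearest Rb1 arrays of the groups read 1177 and 1179.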

How the data were processed

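Total RNA of eWAT was run on Affymetrix mouse Gene ST arrays. Groups and replicate numbers follow the sample titles. The deposited values are intensity values per probe set that the authors obtained with RMA, which corrects the background, normalizes quantiles and summarises by median polish, in Affymetrix Expression Console 1.1. They stand on the linear scale as whole numbers, so dim values are coarse, and log2 was taken here. The arrays give no counts, and their number limits the precision. Of 35556 probe sets, 21789 carried exactly 1 gene symbol, 1621 several and 12146 none, and only the first were used.

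The brightest probe set was kept for each of 19938 genes, and the dimmest 40% were left out (mean log2 intensity under 6.83, or 114 in intensity), which left 11963 genes. These were fitted in R 4.3.3 by limma 3.58.1 using lmFit and eBayes, with two-sided tests and Benjamini-Hochberg adjustment over all genes tested. Dim genes were read from the same fit without the filter. Differences are rAAV-Lmo3 minus rAAV-YFP. The steps were tested on simulated data. Equal replicate numbers did not pair the arrays. The alternatives were centring, a second quantile normalization, array weights, a trend and robust prior, a replicate block, left-out arrays, other brightness filters, the mean over probe sets and the methods' t-test.

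The cell cycle genes and the marker lists were chosen with earlier results of these data known. Genes with full values are the usual proliferation markers, up to 6 genes per group with the smallest p, the brightest and dimmest of each group and up to 3 from each further list. The remaining values fall outside that rule and were given after they had been seen. Promoter windows came from RefSeq, build GRCm38.p6.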

Additional observations from a re-analysis of the deposited data

How the results depend on the processing

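No cell cycle gene and 0 of 11963 genes passed the adjusted threshold under any alternative that kept the brightness filter. Without the filter 0 of 19938 genes passed, but 1 did so without rAAV-YFP replicate 2 and 7 did by the methods' t-test, none of them a cell cycle gene. The count of cell cycle genes higher at an unadjusted p under 0.05, 0 in the reported analysis, was 1 with array weights and 1 without both rAAV-Lmo3 1 and rAAV-YFP 2, Birc5 in both cases, against 2.92% and 2.36% of all genes tested in the same settings. Leaving out single arrays gave 0 to 2, the highest without rAAV-Lmo3 replicate 1 (Birc5 at 0.40 and Aurka at 0.25), against 2.49% of all genes tested. The count of those lower was 0 throughout. With array weights 5 of 39 genes reversed, Ccne2 to -0.016, Mcm2 to 0.0094, Mki67 to 0.17, Tyms to 0.056 and Cenpe to 0.070. Centring each array on its median put Mki67 at 0.00087, just above 0, and changed the split over all genes at the unadjusted threshold to 324 higher and 227 lower, against 271 and 287. Without both low arrays 5 of 39 reversed, Ccne2 to -0.073, Mki67 to 0.029, Tyms to 0.11, Cenpe to 0.060 and Kif23 to -0.0092. The cause of these shifts was not tested.

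Leaving out single arrays moved the median difference of the mitosis genes between -0.17 and 0.38 and that of the replication genes between -0.06 and 0.23, the lowest without rAAV-YFP replicate 2 and the highest without rAAV-Lmo3 replicate 1. Of all 39 genes, 32 (11 replication and 21 mitosis genes) took the opposite sign on leaving out 1 array or another, 26 of them without rAAV-YFP replicate 2. Among the genes named by rule, whose ranges were tabulated, the sign turned for Aurka (-0.012 to 0.25), Ccne2 (-0.064 to 0.10), Cdc45 (-0.0085 to 0.11), Mcm2 (-0.13 to 0.083), Mcm5 (-0.079 to 0.23), Mcm6 (-0.0535 to 0.38), Mki67 (-0.45 to 0.47), Nusap1 (-0.063 to 0.57), Rrm2 (-0.13 to 0.47), Top2a (-0.28 to 0.55) and Ttk (-0.075 to 0.29). Btg2 lay between -0.46 and -0.35.

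With the replicate number as a block, 0 cell cycle genes passed at either threshold, and 216 genes were higher and 237 lower over all genes at the unadjusted threshold. Deviations from the group means of arrays with the same number correlated at -0.55, -0.40 and 0.26. No array correlated best with the array of its own number, so the numbers were not taken as pairs. With 3 pools per group, several intervals reach beyond 1 on the log2 scale in at least 1 direction. These are the intervals of Mki67, Top2a, Ccna2, Ccnb2, Kif11, Tpx2, Nusap1 and Bub1. For each of these genes a difference of that size in at least 1 direction lay within the interval and was not excluded.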
